A study of Mus musculus with 6 samples.

Results

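The 10 genes described here are 3 classical cadherins (Cdh1, Cdh2 and Cdh3), the epithelial adhesion molecule Epcam, the intermediate filament gene Vim and 5 transcription factors of epithelial-mesenchymal transition (EMT), Snai1, Snai2, Zeb1, Zeb2 and Twist1. They were chosen by gene symbol from the 24736 genes of the deposited table, by a rule that uses no measured value, although earlier results of these data were known when they were chosen. All 10 were present and all 10 passed the filter on low counts, which kept 14468 genes for testing. RNA was sequenced from wild-type mouse embryonic stem cells (ESCs) at 0 h and from epiblast-like cells (EpiLCs) at 48 h, with 3 biological replicates of each. Both groups came from HM1 TetON, a single XY ESC line that carries a tetracycline transactivator, so the replicates share one genetic background. The ESCs were grown on mouse embryonic fibroblast feeders in medium that held LIF at 1000 U/ml and serum at 10%. For EpiLCs, the feeders were first depleted by adhesion, and the cells then received neither serum nor LIF but 10 ng/ml bFGF, together with LGK974 at 5 µM to block WNT secretion. Time, serum, LIF, the added factors and possibly feeders changed together between the groups and cannot be told apart. The study does not say whether feeders were depleted before the ESC RNA was taken. The results of the study give 48 h for EpiLCs, as the labels do. Its culture methods give a longer time, and the labels were followed here. The comparison asks how far the adhesion genes and EMT factors of pluripotent cells differed between EpiLCs and ESCs grown with serum and LIF.

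Classical cadherins are transmembrane proteins that join neighbouring cells at adherens junctions through like-to-like binding outside the cell and through catenins inside it. E-cadherin, encoded by Cdh1, holds epithelia and the epiblast together, whereas N-cadherin, encoded by Cdh2, is typical of mesoderm, neural tissue and mesenchyme, and the exchange of the first for the second is called the cadherin switch. In the embryo this switch is best known from gastrulation, when epiblast cells leave the epithelium at the primitive streak. SNAI and ZEB proteins are zinc finger repressors that bind E-box motifs in the promoters of epithelial genes such as Cdh1, and TWIST1 is a basic helix-loop-helix factor that acts in the same programme.

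Among these genes, Cdh1 and Epcam were each about 2-fold higher in EpiLCs, while Cdh2, Vim, Snai1, Snai2 and Zeb1 were lower, with the largest decreases in Zeb1 (7.55-fold) and Snai1 (7.21-fold). Cdh3, Zeb2 and Twist1 did not pass the test. In these bulk levels, the direction for Cdh1 and Cdh2 was therefore the opposite of a cadherin switch in the sense of the textbook. Whether RNA of other cell types in the ESC libraries bears on the Cdh2 level was not tested. At an adjusted p of at most 0.05 in edgeR's quasi-likelihood test, 7 of the 10 genes differed, 2 higher and 5 lower. Of all 14468 genes tested, 45.4% differed, 22.6% being higher and 22.8% lower in EpiLCs. The median log2 fold change of the 10 genes was -1.19 against -0.0017 for all genes tested, and the median of its absolute value was 1.19 against 0.384. Values of the 3 EpiLC libraries lay entirely outside those of the 3 ESC libraries for the same 7 genes, compared with 59.5% of all genes tested. The number of lower genes was 3 without EpiLC replicate 2 or without EpiLC replicate 3. Without EpiLC replicate 1, the number of all genes that differed fell to 4244.

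The libraries held between 16967741 and 35096210 expected counts, so that 3 counts correspond to between 0.0855 and 0.177 CPM (counts scaled to library size), which covers counting error only. Identity markers followed the labels, since 6 of 7 ESC markers were lower in EpiLCs (median log2 fold change -5.76, including Klf4 and Tbx3 at -6.53 and -6.59), with Pou5f1 not passing the test, and 5 of 5 EpiLC markers were higher (median 2.54, including Pou3f1 at 4.07 and Sox3 at 2.93). Values of single libraries are given throughout in the order of replicates 1, 2 and 3. The ESC libraries differed from one another in genes of other cell types. The summed level of 15 fibroblast markers was 396, 1879 and 145 TPM (transcript abundance scaled for transcript length and library size) across the ESC libraries, and between 99.8 and 112 TPM in the EpiLCs. Among the ESC libraries, all 15 had their highest level in replicate 2 and their lowest in replicate 3. The levels were uneven, from Col1a1 at 90.5, 489 and 28.3 TPM and Acta2 at 68.5, 415 and 23.5 TPM down to Postn, Dcn and Lum at no more than 4.82, 1.63 and 0.18 TPM in any library. HM1 cells lack a working Hprt gene, yet the Hprt level was 7.47, 20.9 and 2.33 TPM across the ESC libraries and at most 2.48 TPM in the EpiLCs. All 9 primitive streak markers were highest in ESC replicate 1, with sums of 543, 213 and 176 TPM in the ESCs and of 9.43, 10.2 and 53.7 TPM in the EpiLCs. For this reason values are also given for ESC replicate 3 as the one ESC library, a setting chosen after the data were seen. That fit takes its spread from the EpiLC libraries alone, and the ESC libraries differed more from one another. Between pairs of libraries, the chi-square value per gene was 25.7 to 74.5 among ESCs and 6.83 to 17.6 among EpiLCs. The text therefore gives only the effect sizes of that fit. In bulk RNA, fewer cells of a type and less RNA per cell cannot be told apart.

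Promoter sequences are shown for Epcam, which rose, and for Snai1 and Vim, which fell, because E-boxes are the sites that SNAI and ZEB proteins read. The RefSeq promoter table (build GRCm38.p6) held windows for 5 of the 10 genes, namely Epcam, Vim, Snai1, Twist1 and Zeb2, each with 250 bases before and 50 after a start site. The motif searched was CACCTG on either strand, which reads CAGGTG on the other, and it occurred in 6640 of 32851 windows of 300 bases (20.2%). In the 250 bases before the start it occurred in 17.2% of windows. The 250 upstream bases below are written 5′ to 3′ on the plus strand, with matches in capitals.
Epcam, chr17:87635729-87635978: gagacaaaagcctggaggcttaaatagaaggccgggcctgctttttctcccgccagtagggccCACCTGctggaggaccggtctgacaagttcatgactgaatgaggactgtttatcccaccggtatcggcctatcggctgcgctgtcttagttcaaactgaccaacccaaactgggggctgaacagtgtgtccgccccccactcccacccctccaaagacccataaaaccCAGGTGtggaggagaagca
Snai1, chr2:167537945-167538194: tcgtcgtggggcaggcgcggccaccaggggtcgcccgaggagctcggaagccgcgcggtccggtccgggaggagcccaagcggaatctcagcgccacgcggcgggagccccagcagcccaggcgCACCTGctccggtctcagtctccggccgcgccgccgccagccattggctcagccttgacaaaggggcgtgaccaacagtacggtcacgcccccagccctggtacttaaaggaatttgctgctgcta
Vim, chr2:13574061-13574310: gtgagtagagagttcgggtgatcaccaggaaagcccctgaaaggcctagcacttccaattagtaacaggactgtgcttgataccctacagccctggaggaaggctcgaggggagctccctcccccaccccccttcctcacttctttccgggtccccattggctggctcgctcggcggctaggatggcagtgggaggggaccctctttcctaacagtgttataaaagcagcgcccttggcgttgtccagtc
The Epcam promoter held CACCTG at position -187 and CAGGTG at -19 relative to the start site. Snai1 held a single CACCTG at -126. No match was found in the windows of Vim and Twist1 or in the 4 windows of Zeb2, which says only that these letters are absent from those bases. The G and C content of the upstream bases was 56.4% for Epcam, 70% for Snai1 and 58.4% for Vim, and they held 8, 27 and 8 CpG dinucleotides.

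Cdh1 lies on chromosome 8 (GRCm38, 106603350 to 106670247, plus strand). Its level was 287, 278 and 342 TPM across the ESC libraries, against 658, 688 and 620 TPM across the EpiLC libraries. Every EpiLC library stood above every ESC library, and the replicates of each group lay close together. The mean rose from 302 ± 34.5 to 655 ± 34.0 TPM (SD, n = 3), a log2 fold change of 1.06 (SE 0.09, edgeR adjusted p = 2.99e-04) or 2.09-fold. Cdh1 was the most abundant of the 3 cadherins in all 6 libraries. ESC replicate 3 had the highest Cdh1 level of the ESC libraries, and with it as the one ESC library the log2 fold change was 0.85.

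Epcam (chromosome 17, 87635979 to 87651127, plus strand) encodes a homophilic adhesion and signalling protein of epithelia and pluripotent cells. It measured 133, 115 and 154 TPM across the ESC libraries, against 291, 303 and 274 TPM across the EpiLC libraries. As for Cdh1, the groups did not overlap and ESC replicate 3 was the highest of its group. The log2 fold change was 1.06 (SE 0.11, edgeR adjusted p = 5.78e-04), or 2.08-fold, from means of 133.7 ± 19.5 to 289 ± 14.3 TPM (SD, n = 3). Of 9205 genes averaging 10 CPM or more, those whose profile over the 6 libraries was most like that of Cdh1 were Rtl6, Epcam and Ogfrl1, with root mean square differences of mean-centred log2 values of 0.0471, 0.0495 and 0.0583. Epcam was thus the second nearest gene to Cdh1, with both groups entering the measure.

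Cdh2 (chromosome 18, 16588877 to 16809246, minus strand) measured 71.5, 62.4 and 31.1 TPM across the ESC libraries, against 25.2, 21.4 and 21.6 TPM across the EpiLC libraries. The groups did not overlap, but ESC replicate 3 was only 1.23 times the highest EpiLC library, while ESC replicates 1 and 2 were further away. Cdh2 fell from 55.0 ± 21.2 to 22.7 ± 2.11 TPM (SD, n = 3), with a log2 fold change of -1.32 (SE 0.28, edgeR adjusted p = 0.00888), a 2.50-fold decrease. With ESC replicate 3 as the one ESC library the log2 fold change was -0.54. The part of fibroblast RNA and of streak-like cells in the Cdh2 level was not tested. The gene profiles most like that of Cdh2 were those of Ets1, Man1c1 and Mum1l1, at root mean square differences of 0.131, 0.157 and 0.171. Such differences also depend on how far each gene varied, so they cannot be set against those for Cdh1.

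Cdh3 encodes P-cadherin, named after placenta, and lies upstream of Cdh1 on chromosome 8 (106510852 to 106556911, plus strand), with 46438 bases and 3 annotated genes between them. It measured 22.6, 19.3 and 30.0 TPM across the ESC libraries, against 23.4, 28.7 and 22.9 TPM across the EpiLC libraries. The groups overlapped, and the highest value of all was in ESC replicate 3. The log2 fold change was 0.0042 (95% interval -0.41 to 0.42, edgeR adjusted p = 0.987), an interval that leaves room for changes of either sign, and its sign turned under several alternatives. With ESC replicate 3 as the one ESC library it was -0.35.

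**Figure D1:**
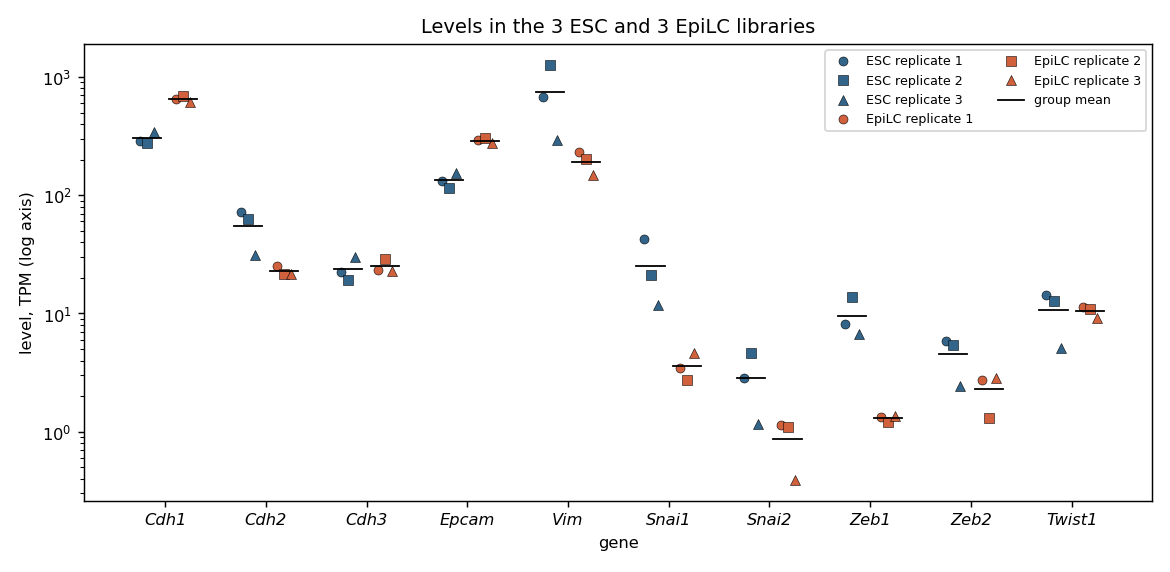
Level of each of the 10 genes in TPM on a log axis, with 1 point per library (ESC blue, EpiLC orange, replicate by symbol) and a bar at the group mean. The EpiLC points lie above the ESC points for Cdh1 and Epcam and below them for Cdh2, Vim, Snai1, Snai2 and Zeb1. They overlap with them for Cdh3, Zeb2 and Twist1.

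Since TPM is scaled per length, the cadherins can be set against each other within a library. Cdh1 was 4.01, 4.46 and 11.0 times as abundant as Cdh2 in ESC replicates 1, 2 and 3, and 26.1, 32.1 and 28.7 times in the EpiLC replicates. The EpiLC ratios were all above the ESC ratios and varied little, whereas ESC replicate 3 stood apart from the other ESC libraries. On the log2 scale, Cdh2 over Cdh1 was -2.54 ± 0.80 in ESCs and -4.85 ± 0.15 in EpiLCs (SD, n = 3), a difference of -2.31 or 4.96-fold. The exact two-sided permutation test gave p = 0.1, the smallest value that 3 against 3 libraries allow. Against ESC replicate 3 alone, with no test, the difference was -1.39. Cdh1 exceeded Cdh3 by 12.7, 14.4 and 11.4 times in the ESC replicates and by 28.1, 24.0 and 27.1 times in the EpiLC replicates.

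The 17 classical cadherins measured summed to 426, 415 and 424 TPM in the ESC replicates and to 740, 768 and 696 TPM in the EpiLC replicates. Of that sum, Cdh1 made up 67.4%, 67.0% and 80.6% in ESCs and 88.8%, 89.6% and 89.2% in EpiLCs. Cdh2 made up 16.8%, 15.0% and 7.33% in ESCs and 3.40%, 2.79% and 3.11% in EpiLCs. E-cadherin transcripts were thus the main cadherin transcripts in every library and took a larger share in each EpiLC library than in any ESC library. Of the 14 other classical cadherins, 12 were tested, of which 5 were higher, 3 lower and 4 did not pass the test, with a median log2 fold change of 0.53. Cdh11, a mesenchymal cadherin, fell by 4.08 on the log2 scale (edgeR adjusted p = 6.85e-04), from 30.0, 38.7 and 11.7 TPM in ESCs to at most 2 TPM in EpiLCs. Cdh6, a cadherin of kidney and neural tissue, fell by 2.80. Cdh10 and Cdh9, both neural cadherins, rose by 2.47 and 2.08 but remained under 8 TPM in each library. Together the 14 made up 10.5%, 13.4% and 4.96% of the sum in ESCs and 4.60%, 3.87% and 4.43% in EpiLCs.

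Vim encodes vimentin, the main intermediate filament of mesenchymal cells (chromosome 2, 13574311 to 13582826, plus strand), whose promoter is printed above. It measured 682, 1270 and 295 TPM across the ESC libraries, against 230, 201 and 148 TPM across the EpiLC libraries. The ESC libraries spanned a 4.30-fold range in the order of the summed fibroblast markers, and ESC replicate 3 was 1.28 times the highest EpiLC library. Vim fell from 749 ± 491 to 193 ± 41.8 TPM (SD, n = 3), a log2 fold change of -2.00 (SE 0.48, edgeR adjusted p = 0.0143). It was -1.39 without ESC replicate 2 and -0.70 with ESC replicate 3 as the one ESC library. The call was lost without EpiLC replicate 2 (log2 fold change -2.02, adjusted p = 0.0508) and without EpiLC replicate 3 (log2 fold change -1.85, adjusted p = 0.0578). The part of fibroblast RNA in the Vim level was not tested.

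**Figure D2:**
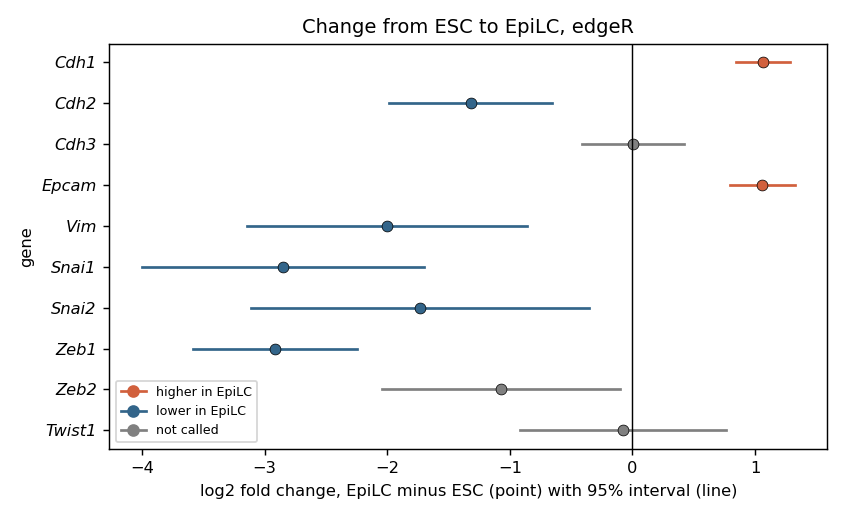
Log2 fold change from ESC to EpiLC in edgeR (point) with its 95% interval (line) for the 10 genes, with orange for higher, blue for lower and grey for genes that did not pass the test. The intervals are narrow for Cdh1 and Epcam, near 1.06, and wide for Vim, Snai1 and Snai2, whose ESC libraries spread most.

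Snai1 and Snai2 encode the repressors SNAIL and SLUG. Snai1 (chromosome 2, 167538195 to 167542814, plus strand) measured 42.6, 21.3 and 11.8 TPM across the ESC libraries, against 3.43, 2.73 and 4.66 TPM across the EpiLC libraries. Each ESC library was above each EpiLC library, with ESC replicate 3 at 2.52 times the highest of them, and the highest ESC value was in replicate 1, the library with the highest streak markers. Its log2 fold change was -2.85 (SE 0.49, edgeR adjusted p = 0.00377), or -2.26 without ESC replicate 1 and -1.79 with ESC replicate 3 as the one ESC library. The part of streak-like cells in the Snai1 level was not tested.

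Snai2 (chromosome 16, 14705852 to 14709395, plus strand) was low, at 2.82, 4.59 and 1.16 TPM across the ESC libraries against 1.14, 1.09 and 0.39 TPM across the EpiLC libraries, from 58, 72 and 31 counts and from 37, 34 and 11 counts. The groups nearly touched, since ESC replicate 3 was 1.02 times the highest EpiLC library. The log2 fold change of -1.73 (SE 0.58) passed the test narrowly (edgeR adjusted p = 0.0468). When a single library was left out the call held only without ESC replicate 3 (adjusted p = 0.0120); without any other library the adjusted p lay between 0.0873 and 0.120, with log2 fold changes from -1.97 to -1.22. With ESC replicate 3 as the one ESC library the log2 fold change was -0.49.

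Zeb1 and Zeb2 encode zinc finger homeobox repressors. Zeb1 (chromosome 18, 5591327 to 5775468, plus strand) measured 8.19, 13.7 and 6.65 TPM across the ESC libraries, against 1.34, 1.20 and 1.36 TPM across the EpiLC libraries. Even the lowest ESC library was 4.89 times the highest EpiLC library, the widest gap among the genes that fell. The log2 fold change was -2.92 (SE 0.28, edgeR adjusted p = 4.31e-04), and it was -2.44 with ESC replicate 3 as the one ESC library. Zeb1 ranked 652 of 14468 genes by the size of its change. The highest Zeb1 value was in ESC replicate 2, the library with the highest fibroblast markers.

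Zeb2 (chromosome 2, 44983512 to 45117442, minus strand) measured 5.86, 5.45 and 2.43 TPM across the ESC libraries, against 2.72, 1.30 and 2.82 TPM across the EpiLC libraries. The groups overlapped, because ESC replicate 3 was below EpiLC replicates 1 and 3. The log2 fold change was -1.07 (95% interval -2.04 to -0.10) and did not pass the test over all genes (edgeR adjusted p = 0.0701). It passed without ESC replicate 3 (log2 fold change -1.37, edgeR adjusted p = 0.0161). DESeq2 gave -1.08 with an adjusted p of 0.0159, whereas with ESC replicate 3 as the one ESC library the edgeR value was -0.19.

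Twist1 (chromosome 12, 33957671 to 33959831, plus strand) measured 14.3, 12.8 and 5.13 TPM across the ESC libraries, against 11.3, 10.9 and 9.16 TPM across the EpiLC libraries. The EpiLC values lay inside the ESC range, with ESC replicate 3 lowest of all 6 libraries. The log2 fold change was -0.08 (95% interval -0.91 to 0.76, edgeR adjusted p = 0.872), and it was 0.94 with ESC replicate 3 as the one ESC library, so that its direction was not stable.

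The 5 factors summed to 73.7, 57.9 and 27.1 TPM in ESC replicates 1, 2 and 3 and to 19.9, 17.2 and 18.4 TPM in the EpiLC replicates. Snai1 made up 57.8%, 36.9% and 43.3% of that sum in the ESCs and 17.2%, 15.9% and 25.3% in the EpiLCs. Twist1 made up 19.3%, 22.1% and 18.9% in the ESCs and 56.7%, 63.2% and 49.8% in the EpiLCs. Snai1 was therefore the most abundant of the 5 in each ESC library and Twist1 in each EpiLC library, although the Twist1 level itself did not pass the test for a difference.

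**Figure D3:**
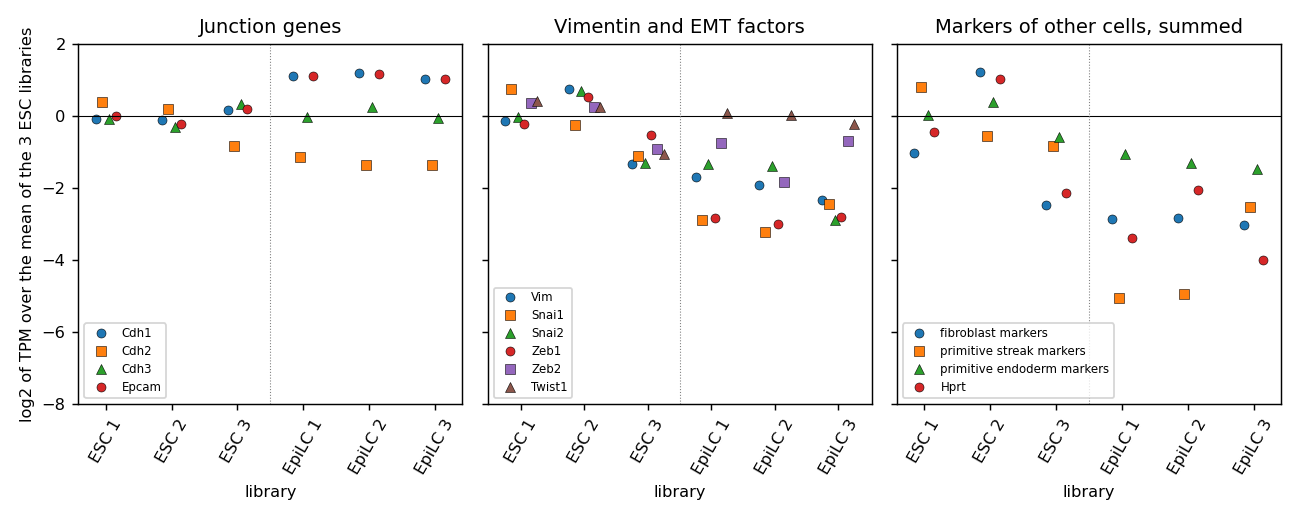
Log2 of TPM over the mean of the 3 ESC libraries, by library, for the adhesion genes, for Vim and the EMT factors, and for summed markers of other cell types with Hprt. In ESC replicate 3, Cdh2, Vim and the 5 factors lie below the ESC mean while Cdh1, Cdh3 and Epcam lie above it, and the summed fibroblast markers are highest in ESC replicate 2.

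The order of the ESC libraries differed among the 10 genes, and Cdh2 went with Vim and the EMT factors rather than with the other adhesion genes. Cdh1, Cdh3 and Epcam peaked in ESC replicate 3 and were lowest in replicate 2, whereas the other 7 genes were lowest in ESC replicate 3. Of those 7, Cdh2, Snai1, Zeb2 and Twist1 were highest in ESC replicate 1, and Vim, Snai2 and Zeb1 in ESC replicate 2. Of the 17 other mesenchymal genes listed, 15 peaked in ESC replicate 2 and 16 had their lowest ESC level in replicate 3. The summed primitive endoderm markers were 115, 145 and 75.1 TPM in ESC replicates 1, 2 and 3 and between 40.2 and 53.5 TPM in the EpiLCs. The summed neural markers were between 54.0 and 87.3 TPM in the ESCs and between 134 and 147 TPM in the EpiLCs. Whether these cell types bear on the levels of Cdh2, Vim and the EMT factors was not tested.

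Among 13 other EMT transcription factors, 2 were higher, 7 lower and 4 did not pass the test, with a median log2 fold change of -1.67. The homeobox gene Gsc, a marker of the organizer and anterior streak, fell by 5.12 on the log2 scale (SE 0.51, edgeR adjusted p = 4.66e-04), from 19.4, 13.0 and 11.3 TPM to at most 0.8 TPM. Prrx1, a homeobox gene of mesenchyme, fell by 3.83 (edgeR adjusted p = 0.0109) and was at 8.14, 26.3 and 2.29 TPM in the ESCs, the order of the fibroblast markers. Tcf12, an E protein, rose by 0.61 on the log2 scale, a small change. It lost its call without EpiLC replicate 1 (edgeR adjusted p = 0.0758), the number of higher factors being 0 in that case and 1 without ESC replicate 1 or EpiLC replicate 2.

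Of 14 cofactors and regulators of SNAI and ZEB proteins, 7 were higher, 2 lower and 5 did not pass the test, with a median log2 fold change of 0.24. Ctbp2, a corepressor bound by ZEB proteins, rose by 0.66 (SE 0.06, edgeR adjusted p = 4.36e-04), and Limd1, a LIM domain protein of the Ajuba family, by 0.68 on the log2 scale (edgeR adjusted p = 0.00529). Wtip, of the same family, fell by 0.65 (edgeR adjusted p = 0.00193), and Kdm1a, the histone demethylase LSD1 that SNAIL recruits, fell by 0.38 (edgeR adjusted p = 0.0174). These changes were far smaller than those of Snai1 and Zeb1. The Kdm1a call was lost without any one of the EpiLC libraries (adjusted p from 0.0529 to 0.0684), in each of which 1 gene of the list was lower, against 4 without ESC replicate 2.

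Of 13 partners of cadherins at adherens junctions, 5 were higher, 2 lower and 6 did not pass the test, with a median log2 fold change of 0.07. Ctnnb1, which encodes β-catenin and links cadherins to α-catenin, measured 445, 436 and 442 TPM in ESCs against 513, 464 and 496 TPM in EpiLCs, with a log2 fold change of 0.11 that did not pass the test (95% interval -0.03 to 0.25, edgeR adjusted p = 0.167). The largest rise among those with a mean of at least 1 TPM was that of Nectin1, an immunoglobulin-like adhesion molecule, from 15.2, 14.7 and 13.5 to 77.7, 70.5 and 76.7 TPM (log2 fold change 2.32, SE 0.08, edgeR adjusted p = 1.61e-05), followed by Nectin3 at 0.46. Jup, which encodes plakoglobin, fell by 0.91 and Ctnna1, which encodes α-catenin, by 0.42 on the log2 scale. Ctnna2, which encodes another α-catenin and was named after its values were seen, rose by 2.79 on the log2 scale (SE 0.43, edgeR adjusted p = 0.00266), though it measured at most 0.77 TPM in any library.

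Epithelial genes outside the adherens junction were mostly higher, with 18 of 25 higher, 4 lower and 3 that did not pass the test (median log2 fold change 0.81). Rab25, a GTPase of apical recycling in epithelia, rose by 3.03 (edgeR adjusted p = 6.04e-04) and Mal2, of apical transport, by 2.82 (edgeR adjusted p = 4.96e-04). The 4 that fell included the keratin gene Krt19, by 2.08, and the grainyhead factor Grhl3, by 1.56 on the log2 scale. Of the desmosome genes, 8 of 11 were tested, 2 being higher, 1 lower and 5 not passing the test (median 0.32). The desmosomal cadherin Dsc2 rose by 1.18 and desmoplakin (Dsp), which ties desmosomes to keratins, fell by 2.30. The number of higher desmosome genes was 1 without EpiLC replicate 1 or 2, and 2 were lower without ESC replicate 2.

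Among 10 genes of cadherin processing and partners of EpCAM, 2 were higher, 2 lower and 6 did not pass the test, with a median of -0.12. Cldn7, a claudin that binds EpCAM, rose by 2.37 (edgeR adjusted p = 0.00101). The tetraspanin gene Cd9, another partner, fell by 1.87 (edgeR adjusted p = 2.34e-04) and was at 192, 229 and 272 TPM in ESCs and at 69.0, 71.7 and 55.8 TPM in EpiLCs. Its fall was opposite to the rise of Epcam in the same libraries. Ctnnal1 fell by 0.28 (edgeR adjusted p = 0.0456) and lost its call in most alternatives, so that 1 gene was lower without ESC replicate 2 or any EpiLC replicate. The number of higher genes was 1 without EpiLC replicate 1 or 2.

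Of 17 mesenchymal genes, 10 were lower, 0 higher and 7 did not pass edgeR's test (median log2 fold change -1.69). At an unadjusted p of at most 0.05, 2 were higher and 12 lower, and DESeq2 called 2 higher and 10 lower. Lox, a collagen cross-linking enzyme, fell by 6.11 (SE 1.47, edgeR adjusted p = 0.0144) and was at 80.5, 522 and 28.2 TPM in ESCs and at 1.21, 7.67 and 0.49 TPM in EpiLCs. In both groups Lox was highest in replicate 2. Lox lost its call without EpiLC replicate 1 (adjusted p = 0.0595). The number of higher genes was 3 without ESC replicate 2 and 2 without EpiLC replicate 3. The number of lower genes was 3, 5 and 4 without EpiLC replicates 1, 2 and 3.

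**Figure D4:**
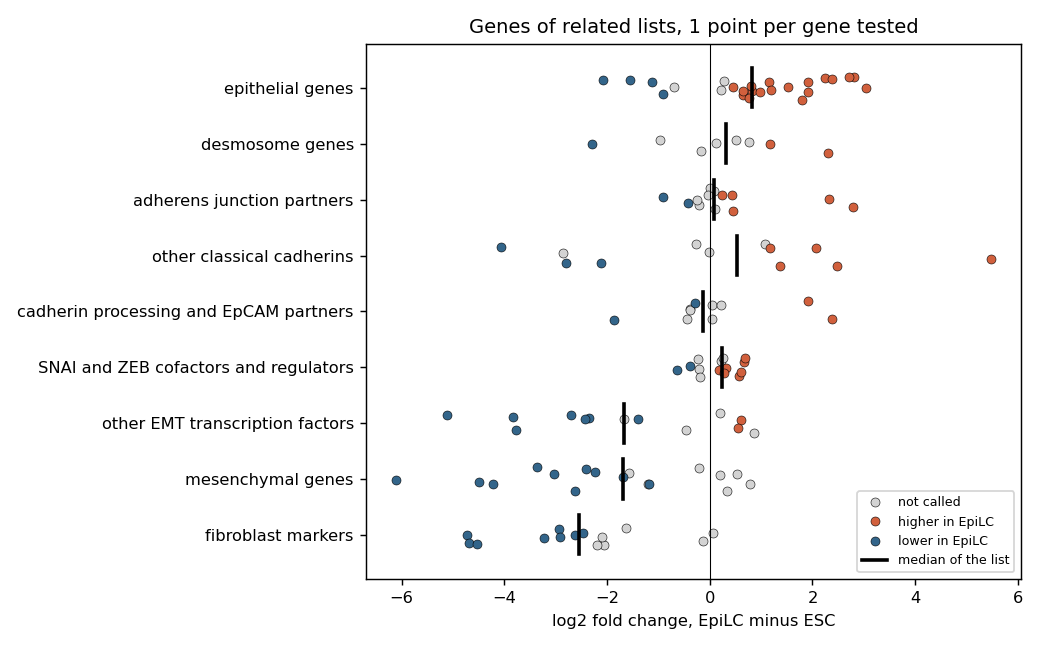
Log2 fold change from ESC to EpiLC of each gene tested in 9 related lists, 1 point per gene, orange for higher, blue for lower and grey for not passing the test, with a black bar at the list median. Medians run from -2.55 for fibroblast markers and -1.69 for mesenchymal genes to 0.81 for epithelial genes.

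The markers of other cell types were themselves lower in EpiLCs for the most part. Of 14 fibroblast markers tested, 8 were lower and 0 higher in edgeR (median log2 fold change -2.55), with 9 lower and 0 higher at an unadjusted p of at most 0.05 and likewise 9 and 0 with DESeq2. The collagen genes Col1a1 and Col1a2 had log2 fold changes of -4.74 and -4.70, and both lost their call without EpiLC replicate 1 (adjusted p of 0.0603 and 0.0632) or 3. The number of lower fibroblast markers was 2 without EpiLC replicate 1 or 3. Of 9 primitive streak markers, 7 were lower and 0 higher (median -3.94), with 8 and 0 at an unadjusted p of at most 0.05 and 7 and 0 with DESeq2. The largest falls were those of Mixl1 and Fgf8, with log2 fold changes of -5.17 and -5.07. Of 8 primitive endoderm markers, 5 were lower and 0 higher (median -2.28), with 6 and 0 at an unadjusted p of at most 0.05 and 5 and 0 with DESeq2, and the endoderm factors Gata6 and Gata4 had log2 fold changes of -4.63 and -3.20. Of 5 neural markers tested, 2 were higher and 0 lower (median 0.83), with 3 and 1 at an unadjusted p of at most 0.05 and 2 and 1 with DESeq2, and Neurod1 and Tubb3 rose by 1.51 and 0.83.

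**Figure D5:**
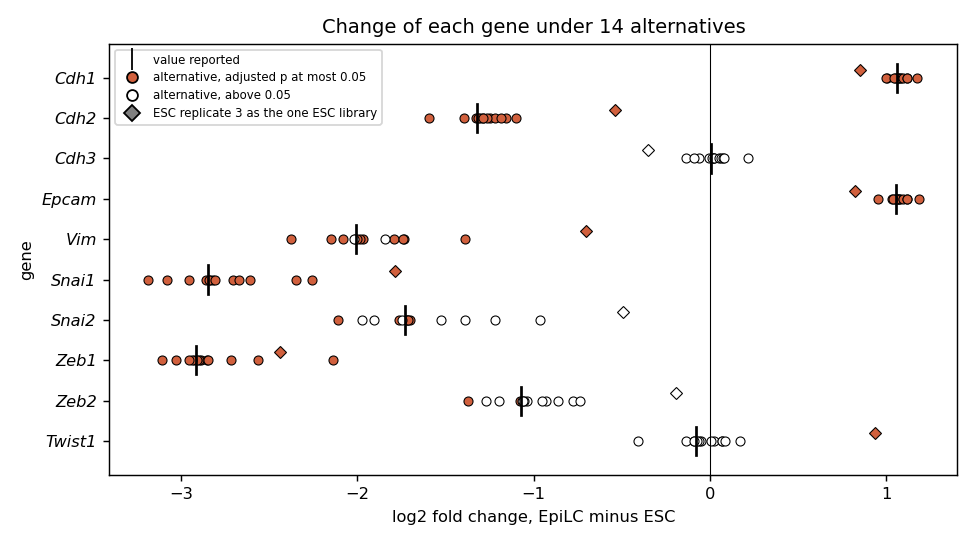
Log2 fold change of each of the 10 genes as reported (bar) and under 14 alternatives (points), filled where the adjusted p was at most 0.05, with a diamond for ESC replicate 3 as the one ESC library. Cdh1, Cdh2, Epcam, Snai1 and Zeb1 stay filled and on one side of 0, whereas Cdh3 and Twist1 lie on both sides. The fill of the diamonds rests on the spread of the EpiLC libraries alone.

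The genes differed in how far their change held under the alternatives. Over 14 alternatives, the log2 fold change lay between 0.85 and 1.18 for Cdh1, between 0.83 and 1.19 for Epcam, between -1.59 and -0.54 for Cdh2, between -3.19 and -1.79 for Snai1 and between -3.11 and -2.14 for Zeb1. For these genes the call was kept each time, leaving aside ESC replicate 3 as the one ESC library, which gives no test. For Cdh1 and Epcam as for Cdh2 and Snai1, the smallest of these changes was that with ESC replicate 3 as the one ESC library. The call of Vim was kept in 12 of the 14 and that of Snai2 in 6.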

How the data were processed

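Poly(A) RNA of 3 ESC and 3 EpiLC libraries was sequenced as strand-specific single-end reads of 76 nt (KAPA mRNA HyperPrep). The authors trimmed adapters with cutadapt 1.16, mapped with STAR 2.5.2a and counted per gene with RSEM 1.3.0 against mm10 RefSeq genes. They named DESeq2 1.16.1 for differential expression. The deposited expected counts are not normalized, and RSEM splits a read among the genes to which it maps. The deposited TPM values are scaled by the authors for transcript length and library.

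Expected counts were rounded, normalized with TMM (factors 0.979 to 1.02), filtered with filterByExpr and compared by the quasi-likelihood F-test of edgeR (version 4.0.16 under R 4.3.3), with Benjamini-Hochberg adjustment over all 14468 genes tested and a threshold of 0.05. The script was tested on simulated counts. TPM served for levels and ratios. Alternatives were DESeq2 1.42.0, upper-quartile scaling, no filter, at least 10 counts in every library, a replicate block, leaving out each library, limma 3.58.1 on log2(TPM + 1) and log2(TPM + 0.1), and ESC replicate 3 as the one ESC library. No 2 libraries of a group were duplicates, with chi-square values per gene from 6.83 to 74.5.

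The 10 genes and the gene lists were chosen with earlier results of these data known. From each list the text names the called genes with the 2 largest rises and 2 largest falls among those with a mean of at least 1 TPM over 6 libraries, the 3 nearest profiles to Cdh1 and to Cdh2 (log2 CPM, prior count 2) and Hprt. Ctnnb1, Ctnna2, Pou5f1 and the single fibroblast markers were named after their values were seen. The labels call the replicates biological, and the study describes its data in general as coming from at least 3 independent experiments. All replicates derive from one line, so p-values measure the spread between these libraries.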

Additional observations from a re-analysis of the deposited data

How the results depend on the processing

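Under the 14 alternatives, Cdh1, Cdh2, Epcam, Snai1 and Zeb1 kept their direction. Their call was kept too, leaving aside ESC replicate 3 as the one ESC library, which gives no test. Leaving out each library in turn gave 4244 to 7181 genes called in all, 2144 to 3572 higher and 2100 to 3609 lower, and 3 to 6 of the 10 genes lower. In those fits the log2 fold change ranged from -0.13 to 0.22 for Cdh3, from -2.38 to -1.39 for Vim, from -2.11 to -1.22 for Snai2, from -1.37 to -0.78 for Zeb2 and from -0.41 to 0.17 for Twist1. With DESeq2, Cdh3 was at -0.0052 and Zeb2 at -1.08 (adjusted p = 0.0159). With limma on log2(TPM + 1) and log2(TPM + 0.1), scales that understate the change of low genes, Snai2 was at -0.96 and -1.53 (adjusted p of 0.0611 and 0.0602) and Twist1 at 0.0686 and 0.0877. With ESC replicate 3 as the one ESC library, chosen after the data were seen, Cdh3 was at -0.35, Snai2 at -0.49, Twist1 at 0.94 and the log2 ratio of Cdh2 to Cdh1 differed by -1.39. The causes were not tested.

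The labels number the replicates of both groups from 1 to 3, and the correlation of deviations between libraries of the same number was 0.0066, 0.187 and 0.171. The EpiLC library with the highest correlation was replicate 3, 2 and 3 for ESC replicates 1, 2 and 3. The numbers were not taken as pairs in the main fit. With a replicate block 6085 genes were called, of which 5828 were also called without it, and 7 of the 10 genes (2 higher, 5 lower). Twist1 was at 0.0239 with the block (adjusted p = 0.949). The edgeR adjusted p was lower with the block for Snai2 (0.00881), Vim (0.00908) and Cdh2 (0.00873), and higher for Cdh1, Epcam, Snai1 and Zeb1. With the block the exact sign-flip test of the log2 Cdh2 to Cdh1 ratio, at -2.31, gave p = 0.25, the smallest value that 3 pairs allow.

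For the list counts and the genes named from lists, 865 values kept their direction and call or stayed within 1.5 times the count reported, 53 counts moved by more, 32 changes of a gene under an alternative lost their call and 0 reversed. Each value is 1 gene or 1 list under 1 alternative, so that a gene can enter several times. The fit with ESC replicate 3 as the one ESC library is counted among the alternatives. Beyond the counts without single libraries, 4 cofactors were lower with DESeq2, 4 desmosome genes were higher with upper-quartile scaling or limma on log2(TPM + 0.1), and 6 mesenchymal genes were lower with either limma fit. At least 10 counts in every library left 3 other cadherins higher and 3 streak markers lower, since fewer genes were tested. Without the filter, with upper-quartile scaling, with either limma fit or with the block, 2 mesenchymal genes were higher, and with the block 1 of the other EMT factors was. The limits of these data are the 3 libraries per group, the spread between the ESC libraries in fibroblast and streak markers, and the low counts of Snai2 (11 to 72).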
